A study of Mus musculus with 12 samples.

Results

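The JAK-STAT3 and gp130 cytokine pathway was described here through 10 genes, listed by name and matched by symbol to Ensembl mouse identifiers. They are the receptors Cntfr, Lifr, Il6ra and Il6st, the kinases Jak1, Jak2 and Tyk2, the transcription factors Stat3 and Stat5b, and the inhibitor Socs3. All 10 were found among the 27866 identifiers of the astrocyte table and the 30359 of the microglia table, and all 10 passed the filter on low counts in each fraction, where 16451 and 16949 genes were tested. In these libraries Stat3, Stat5b and Il6st were lower in sorted astrocytes of mice given the A2A vector than in those of control mice. The Stat3 difference no longer passed the test when any 1 of the 6 libraries was left out. Stat5b and Il6st passed in each of these fits. In the CD11b fraction no member passed the test. There 9 of the 10 fitted differences were above 0, with a median of 1.06 on the log2 scale, against -0.05 over all genes tested. However, some CD11b libraries, more of them controls than AAV-A2A libraries, were rich in choroid plexus markers. Without those libraries, which leaves 1 control, the median was 0.57, against 0.04 over all genes tested. The part of this imbalance in the fitted differences was not tested.

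Male C57Bl6/J mice received bilateral CA1 injections of an AAV2/9 vector at 2 months of age and were studied 2 months later. The vector carried either the murine adenosine A2A receptor gene, Adora2a (AAV-A2A), or GFP as control (AAV-GFP), each under GfaABC1D, a short GFAP promoter selective for astrocytes, with the Bglob and WPRE elements named in the labels. Hippocampal cells were sorted with ACSA-2 magnetic beads, which bind an astrocyte surface antigen, and the unlabelled remainder was then sorted with CD11b beads, which bind microglia and other myeloid cells. Each of the 4 groups of fraction and vector had 3 libraries, named below by vector and number. Whether a mouse gave both fractions is not stated, and fraction and library series cannot be told apart.

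Cytokines of the interleukin-6 family, among them IL-6, LIF and CNTF, signal through gp130, the shared subunit encoded by Il6st. They also use partner receptor subunits such as those encoded by Il6ra, Lifr and Cntfr. Kinases bound to the receptor (JAK1, JAK2, TYK2) then phosphorylate STAT3 and other STAT proteins, which enter the nucleus, and SOCS3, a product of STAT3 target transcription, binds gp130 and the kinases and damps the signal. In the brain STAT3 is known for its role in reactive astrocytes, and the A2A receptor is known to raise cyclic AMP. The libraries measured messenger RNA and not phosphorylation.

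The sequences just upstream of 5 of the genes are shown. Stat3, Stat5b and Il6st were chosen because they passed the test as lower with AAV-A2A in the ACSA-2 libraries. Socs3 and Jak1 were chosen because they held the motifs searched for. All 10 genes matched the RefSeq promoter table of GRCm38.p6, with 17 promoters. Each run reads 5′ to 3′ on the strand of the gene and stops before the first base that RefSeq or GENCODE annotates as transcribed there. Capitals mark a motif.
Stat3 (chr11:100939541-100939700, minus strand): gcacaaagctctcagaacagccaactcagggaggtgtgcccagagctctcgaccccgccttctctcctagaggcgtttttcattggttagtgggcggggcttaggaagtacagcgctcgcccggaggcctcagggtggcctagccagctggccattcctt
Stat5b (chr11:100850725-100850831, minus strand): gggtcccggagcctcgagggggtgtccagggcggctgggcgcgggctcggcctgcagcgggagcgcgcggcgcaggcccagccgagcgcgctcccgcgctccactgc
Il6st (chr13:112463910-112464069, plus strand): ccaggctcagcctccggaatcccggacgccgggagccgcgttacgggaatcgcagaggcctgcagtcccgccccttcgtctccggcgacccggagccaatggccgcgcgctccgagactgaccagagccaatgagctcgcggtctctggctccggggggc
Socs3 (chr11:117969452-117969611, minus strand): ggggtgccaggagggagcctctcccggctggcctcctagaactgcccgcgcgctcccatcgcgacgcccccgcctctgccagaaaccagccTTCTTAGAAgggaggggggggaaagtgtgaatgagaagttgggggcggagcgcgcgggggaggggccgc
Jak1 (chr4:101265283-101265442, minus strand): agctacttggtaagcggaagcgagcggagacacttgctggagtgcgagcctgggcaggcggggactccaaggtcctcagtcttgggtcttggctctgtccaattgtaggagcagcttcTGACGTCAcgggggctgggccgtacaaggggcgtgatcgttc
The Socs3 run lies in an intron of a longer annotated Socs3 transcript, and the other 4 lie upstream of their genes. The motifs were the STAT site TTCNNNGAA and the cyclic AMP response element TGACGTCA. Both were searched on both strands over the 250 bases before each RefSeq start. The STAT site was found in 7.02% of 32851 promoters and, among the members, in Socs3 alone, starting 154 bases before the RefSeq start. The cyclic AMP element was found in 1.55% of promoters and among the members in Jak1 alone, 101 bases before the start. The motifs do not overlap each other. Neither motif was found in the windows of Stat3, Stat5b or Il6st, which says only that these letters are not there.

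Levels are given as CPM, the counts of a gene scaled to a common library total by TMM. Counts on genes went from 33937067 to 49217553 per ACSA-2 library and from 36098295 to 53206974 per CD11b library. In the ACSA-2 libraries Adora2a, the gene carried by the vector, was at 23.0 to 25.1 CPM with AAV-GFP and at 656 to 945 with AAV-A2A. In the CD11b libraries it was at 3.96 to 8.07 and 16.3 to 43.3 CPM. The 8 astrocyte markers summed to 34000 to 53100 CPM in the ACSA-2 libraries, where the 8 microglia markers summed to 451 to 783 CPM. In the CD11b libraries the microglia markers summed to 11500 to 83700 CPM, but 3 libraries stood apart. In GFP-2328, GFP-2329 and A2A-2347 the 6 choroid plexus markers summed to 76200, 61900 and 31100 CPM, above the microglia markers of the same library (11500, 24100 and 29000 CPM). In the other 3 CD11b libraries they summed to 9.25 to 91.5 CPM. The CD11b values of the members and the pathway lists are therefore also given without these 3 libraries.

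The first comparison asked how the members were distributed between the fractions in AAV-GFP controls. The partner receptor genes Cntfr and Il6ra and the inhibitor Socs3 separated the fractions most, while the other partner receptor gene, Lifr, did not pass. Cntfr, the CNTF receptor subunit, was at 178 ± 41.7 CPM in ACSA-2 and 2.45 ± 0.963 CPM in CD11b controls (SD, n = 3 each, libraries of both fractions normalised together). This was a log2 difference of 6.18 (SE 0.52, adjusted p = 1.89e-05, edgeR). Il6ra, the IL-6 receptor subunit, had the opposite distribution, with 2.16 ± 1.52 CPM in ACSA-2 and 99.1 ± 88.4 CPM in CD11b controls (log2 difference -5.52, SE 0.85, adjusted p = 0.000896). Socs3 was at 8.34 ± 3.33 CPM in ACSA-2 and 509 ± 207 CPM in CD11b controls (log2 difference -5.93, SE 0.54, adjusted p = 3.17e-05). These 3 differences passed in all 17 alternative settings tried. The values do not overlap between the fractions for any of the 3 genes.

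Stat3 was higher in ACSA-2 than in CD11b controls, at 916 ± 195 against 358 ± 175 CPM (log2 difference 1.36, SE 0.45, adjusted p = 0.0429). It passed in 8 of the 17 settings. Without the 3 CD11b libraries rich in choroid plexus markers the difference was 0.69 (adjusted p = 0.348), and there Jak1 (-1.51, adjusted p = 0.00702) and Tyk2 (-2.31, adjusted p = 0.0192) passed as higher in CD11b. That setting leaves 1 CD11b control library, which is assumed to vary like the others. In the main setting the other 6 members did not pass: Stat5b, Il6st, Lifr, Jak1, Jak2 and Tyk2 had log2 differences between -1.44 and 0.40. Of the 10 members 2 were called higher in ACSA-2 and 2 lower, against 12.3% and 14.4% of 18602 genes. The Stat3 call was lost without GFP-303, GFP-306, GFP-307, A2A-309 or A2A-313 of the ACSA-2 libraries and without GFP-2328, GFP-2329 or A2A-2344 of the CD11b libraries (log2 difference 1.15 to 1.83 over all single omissions).

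Per kilobase of exon, the scale on which genes can be compared with each other, Stat3 and Cntfr led the ACSA-2 controls. Stat3 was at 94.7 ± 20.3 and Cntfr at 63.1 CPM per kb (range 45.9 to 72.6), and their ranges overlapped. Stat5b (20.5 ± 7.36), Jak1 (10.7 ± 0.404) and Il6st (7.26 ± 0.833) followed without overlap between neighbours. Lifr, Jak2 and Socs3 were at 2.84 to 3.46 CPM per kb and overlapped each other, above Tyk2 (1.16 ± 0.0553) and Il6ra (0.246 ± 0.173). In the CD11b controls Socs3 led at 177 ± 66.0 CPM per kb, followed without overlap by Stat3 at 37.7 ± 16.8. Jak1, Stat5b, Il6ra and Il6st came next, at 8.45 to 18.9 CPM per kb, and each neighbour in the order from Stat3 to Il6st overlapped the next. Jak2, Tyk2 and Lifr were at 2.95 to 3.74 CPM per kb, and Cntfr was lowest at 0.903 ± 0.386.

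**Figure D1:**
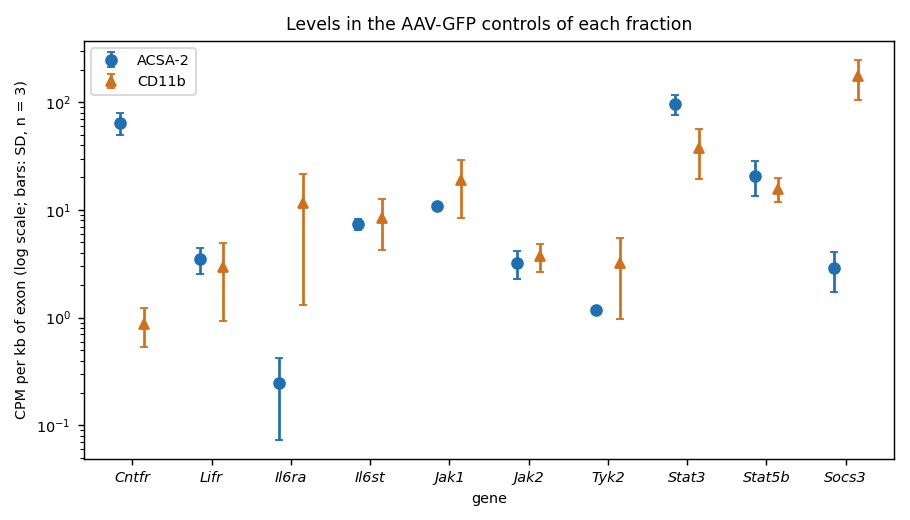
Mean level of each gene in AAV-GFP controls, in CPM per kb of exon on a log axis, for ACSA-2 (circles) and CD11b (triangles) libraries normalised together; bars are the SD of 3 libraries. Cntfr is at 64.1 in ACSA-2 against 0.88 in CD11b, and Socs3 at 2.88 against 176.

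The second comparison asked how the members responded to astrocytic A2A receptor expression within the ACSA-2 fraction. Both STAT genes and the gp130 gene fell, the partner receptors and Socs3 did not pass the test, and the kinases did not pass either. A gene was called when its edgeR p, adjusted by the Benjamini-Hochberg method, was under 0.05 and its log2 fold change exceeded 0.32 in size. Of the 10 members 3 were called lower and 0 higher. Of all 16451 genes tested, 3.19% were called lower and 0.176% higher. In bulk libraries fewer cells of a type and less RNA per cell cannot be told apart.

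Il6st was at 84.1, 70.0 and 87.5 CPM in the controls (in the order GFP-303, GFP-306, GFP-307), and at 31.2, 31.7 and 28.8 CPM with AAV-A2A (A2A-309, A2A-310, A2A-313). Every AAV-A2A library was below every control, and the AAV-A2A libraries were close to each other. Il6st fell by 1.40 on the log2 scale (SE 0.19, adjusted p = 0.00421), a 2.64-fold fall. The call was kept whichever of the 6 libraries was left out and was lost in the fit of all 12 libraries, where the log2 fold change was -1.43 (SE 0.416, adjusted p = 0.194). Il6st, on chromosome 13 from 112464070 to 112510086, shares no 50-base stretch of its transcripts with another gene.

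The partner receptors did not pass. Lifr, the LIF receptor subunit, was at 41.5, 44.7 and 25.7 CPM in controls and at 22.7, 30.0 and 21.3 CPM with AAV-A2A. The groups overlapped, and the log2 fold change was -0.60 (SE 0.27, adjusted p = 0.405). Cntfr was at 128, 202 and 197 CPM in controls and at 125, 103 and 238 CPM with AAV-A2A. The highest and the lowest of these were both AAV-A2A libraries (log2 fold change -0.17, SE 0.31, adjusted p = 0.91). Il6ra was low, at 0.926 to 3.80 CPM in controls and 2.51 to 6.52 CPM with AAV-A2A (0.89, SE 0.71, adjusted p = 0.709).

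Among the kinases, Jak1 was at 74.6 to 80.5 CPM in controls and 79.4 to 94.2 CPM with AAV-A2A, a log2 fold change of 0.14 (SE 0.17, adjusted p = 0.843). Jak2 was at 12.0 to 20.8 and 11.4 to 15.1 CPM (-0.27, SE 0.31, adjusted p = 0.826). Tyk2 was at 8.31, 7.56 and 8.07 CPM in controls and at 4.49, 3.38 and 5.63 CPM with AAV-A2A. Its groups did not overlap, but the log2 fold change of -0.83 (SE 0.39) did not pass (adjusted p = 0.411). Reads of Tyk2 are partly uncertain, since 8.07% of its exonic bases lie under another annotated gene, 1700084C06Rik, on the opposite strand.

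Stat3 was the most abundant member per kilobase in controls. It was at 688, 955 and 1063 CPM in controls, and at 411, 185 and 398 CPM with AAV-A2A. The groups did not overlap, and A2A-310 was the lowest library. Stat3 fell by 1.45 on the log2 scale (SE 0.31, adjusted p = 0.0334), a 2.72-fold fall. This call was close to the threshold: without any of the 6 libraries in turn the fall was 1.16 to 1.63, and the adjusted p was 0.0546 to 0.135, so that no such fit kept the call. It was also lost in the fit of all 12 libraries (log2 fold change -1.47, SE 0.448, adjusted p = 0.218) and with an offset for gene length and GC content (log2 fold change -1.11, adjusted p = 0.0816). It was kept in the 5 other settings, DESeq2 and limma-voom among them. By immunostaining, the study reported more STAT3 in GFAP-positive CA1 astrocytes of AAV-A2A mice than of controls. That is a protein measure on tissue sections, and the values here are RNA of sorted cells.

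Stat5b showed the largest fall of the 10 members in this fit. It was at 68.3, 147 and 125 CPM in controls and at 25.5, 22.1 and 27.3 CPM with AAV-A2A. GFP-303 was the lowest control, and all AAV-A2A libraries were below it. Stat5b fell by 2.19 on the log2 scale (SE 0.29, adjusted p = 0.00366), a 4.55-fold fall, and passed in all 13 alternative settings. Its paralog Stat5a fell by 2.70 (SE 0.52, adjusted p = 0.0218), from 9.93 to 26.7 CPM in controls to 1.42 to 3.52 CPM with AAV-A2A. Stat5b shares 10.985% of its 50-base stretches with Stat5a, so reads in those stretches could not be given to either gene. Stat5b, Stat5a and Stat3 are neighbours on chromosome 11 between 100780731 and 100939540, and the ends of Stat5a and Stat3 overlap on opposite strands over 0.76% of the exonic bases of Stat3.

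Socs3 was at 6.13, 6.53 and 12.0 CPM in controls and at 14.0, 6.13 and 8.31 CPM with AAV-A2A. The groups overlapped, and the log2 fold change was 0.21 (SE 0.44, adjusted p = 0.925). Over the 10 members the median log2 fold change was -0.43, against 0.02 over all genes tested. The AAV-A2A libraries were all below the controls for 4 members (Stat3, Stat5b, Il6st and Tyk2) and all above for 0, against 10.9% and 8.61% of all genes.

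**Figure D2:**
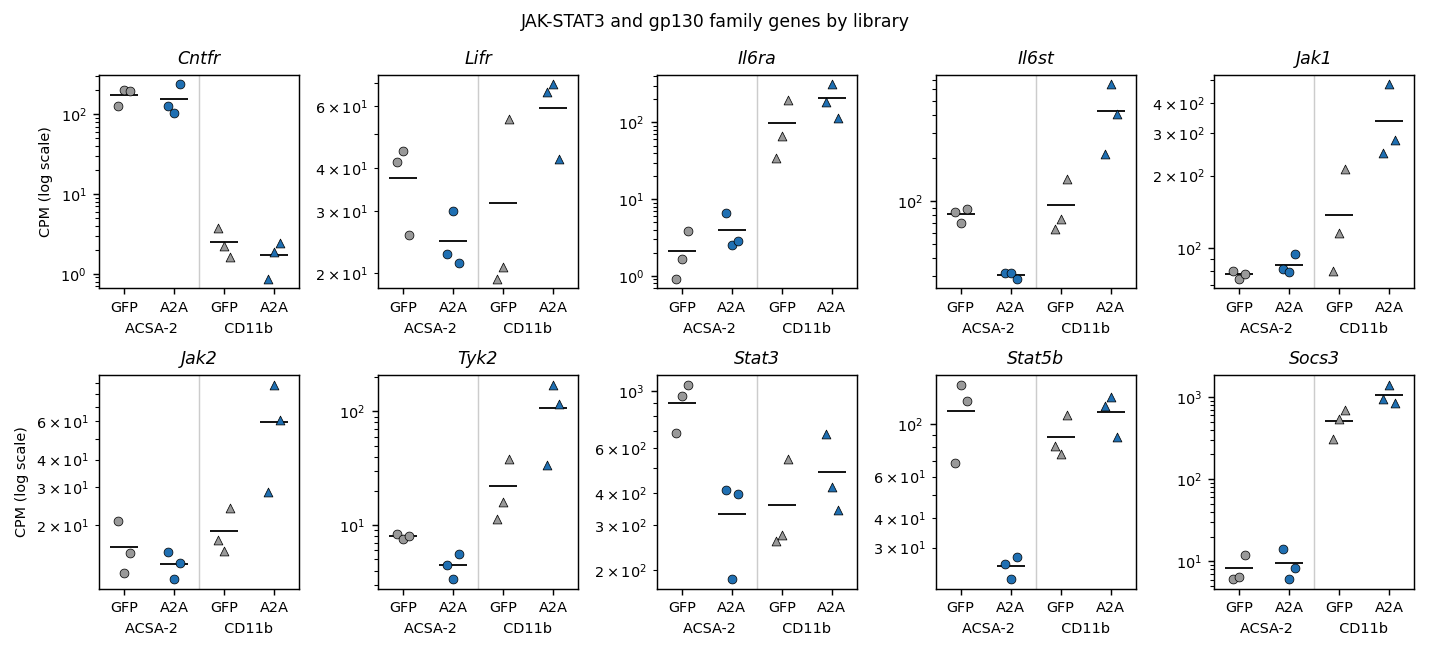
Level of each of the 10 genes in each library, in CPM on a log axis that differs between panels; circles are ACSA-2 and triangles CD11b libraries, grey AAV-GFP and blue AAV-A2A, and the line is the mean of 3 libraries. In the ACSA-2 libraries all AAV-A2A points of Il6st, Tyk2, Stat3 and Stat5b lie below the controls.

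Markers of other cells were measured in the same ACSA-2 libraries. The 6 endothelial markers had a median log2 fold change of -1.03, with summed levels of 361 to 436 CPM in controls and 204 to 355 CPM with AAV-A2A. One of them, Flt1, was called (181 to 57.2 CPM in the mean, adjusted p = 0.00523), and 5 of the 6 were below 0. The marker not below 0 was Cldn5, at a mean of 167 CPM in controls and 174 CPM with AAV-A2A (log2 fold change 0.05). Of the 8 astrocyte markers 1 was called, Atp1b2, which encodes the antigen that the ACSA-2 beads bind (1570 to 815 CPM in the mean, log2 fold change -0.95, adjusted p = 0.0294). The astrocyte sum was 34000 to 38500 CPM in controls and 34900 to 53100 CPM with AAV-A2A. The median log2 fold change of the 8 astrocyte markers was 0.12, and 2 of the 8, Atp1b2 among them, were below 0. Oligodendrocyte markers (341 to 397 and 332 to 568 CPM, median log2 fold change 0.66, all 5 tested above 0) and choroid plexus markers (561 to 611 and 610 to 1010 CPM, median 0.24) were not called. No endothelial or astrocyte marker was at 0 in a group. The part of these differences in the results for Stat3, Stat5b and Il6st was not tested.

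The third comparison asked the same of the CD11b fraction. Here the fitted differences were larger in size than in the ACSA-2 fraction for 8 members, and mostly upward, but the libraries also varied more. By edgeR 0 of the 10 members were called, 4 had an unadjusted p under 0.05, DESeq2 called 1 (Il6st) and limma-voom 0. Among all 16949 genes edgeR called 0.0% higher and 0.0% lower, 2704 had an unadjusted p under 0.05, and DESeq2 and limma-voom called 502 and 0.

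Il6st was at 63.9, 75.1 and 142 CPM in GFP-2328, GFP-2329 and GFP-2331 and at 214, 652 and 406 CPM in A2A-2343, A2A-2344 and A2A-2347. The groups did not overlap. The log2 fold change was 2.18 (SE 0.55), with an unadjusted p of 0.00598 and an adjusted p of 0.28 in edgeR and an adjusted p of 0.0235 in DESeq2. Without the 3 choroid-rich libraries, where 1 control and 2 AAV-A2A libraries were left and the control is assumed to vary like the others, the log2 fold change was 1.61 (SE 0.70, adjusted p = 1.0).

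All 3 kinases had fitted differences above 1 in this fraction. Jak1 was at 80.4, 115 and 214 CPM in controls and 250, 480 and 281 CPM with AAV-A2A (log2 fold change 1.30, SE 0.49, adjusted p = 0.293). Jak2 was at 17.1, 15.2 and 24.1 CPM and at 28.4, 88.4 and 61.0 CPM (1.65, SE 0.46, adjusted p = 0.28). Neither gene overlapped between the groups. Tyk2 was at 11.4, 16.1 and 38.4 CPM in controls and at 33.6, 172 and 115 CPM with AAV-A2A, so that A2A-2343 was below the highest control (2.28, SE 0.72, adjusted p = 0.28). Without the choroid-rich libraries the 3 log2 fold changes were 0.77, 1.28 and 1.43.

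Stat3 and Stat5b had smaller fitted differences than the other members and did not pass. Stat3 was at 259, 274 and 544 CPM in controls and 683, 423 and 343 CPM with AAV-A2A (log2 fold change 0.43, SE 0.47, adjusted p = 0.679), and the groups overlapped. Without the choroid-rich libraries the log2 fold change was 0.03. Stat5b was at 75.1 to 109 and 88.6 to 131 CPM (0.35, SE 0.30, adjusted p = 0.583), without the choroid-rich libraries its value was 0.20, and with the length and GC offset it was -0.05.

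Socs3, abundant in this fraction, was at 308, 543 and 685 CPM in controls and 950, 1412 and 834 CPM with AAV-A2A. The groups did not overlap (log2 fold change 1.06, SE 0.47, adjusted p = 0.333), and without the choroid-rich libraries the value was 0.79. Il6ra was at 34.8, 66.4 and 194 CPM and at 186, 315 and 115 CPM (1.06, SE 0.70, adjusted p = 0.478), and Lifr at 19.3 to 55.2 and 42.5 to 69.5 CPM (0.90, SE 0.48, adjusted p = 0.396). Without the choroid-rich libraries their values were 0.37 and 0.30. Cntfr was low, at 1.62 to 3.71 and 0.872 to 2.43 CPM (-0.54, SE 0.64, adjusted p = 0.697), with -0.24 without the choroid-rich libraries.

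Over the 10 members the median log2 fold change was 1.06, against -0.05 over all genes tested. Leaving out the choroid-rich libraries gave 0.57, against 0.04, with 9 of the 10 values still above 0. The AAV-A2A libraries were all above the controls for 4 members (Il6st, Jak1, Jak2 and Socs3) and all below for 0. The same held for 12.6% and 10.9% of all genes. Among the 3 libraries poor in choroid plexus markers, the 2 AAV-A2A libraries were both above the 1 control for 6 members and both below for 0, against 32.3% and 35.5% of 17362 genes. Among the control libraries the members were highest in GFP-2331, the control with the fewest choroid plexus and the most microglia marker counts, for 9 of the 10 genes. The summed microglia markers of the controls were 11500, 24100 and 78100 CPM, and those of the AAV-A2A libraries 83700, 59100 and 29000 CPM. Erythrocyte markers summed to 865 to 5450 CPM in controls and 55.0 to 217 CPM with AAV-A2A, and neuron markers to 16.7 to 203 and 4.66 to 12.5 CPM. The summed endothelial (453 to 1160 and 255 to 370 CPM) and ependymal markers (143 to 271 and 33.4 to 63.3 CPM) were also lower in every AAV-A2A library. Their median log2 fold changes were -0.05 and -2.07. Of the endothelial markers Cldn5 (-1.77) and Flt1 (-1.85) were lowest, and the others were between -0.08 and 0.61. Border macrophage markers were at 36.6 to 163 and 150 to 242 CPM, with a median log2 fold change of 1.38. Their part in the fitted differences was not tested.

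**Figure D3:**
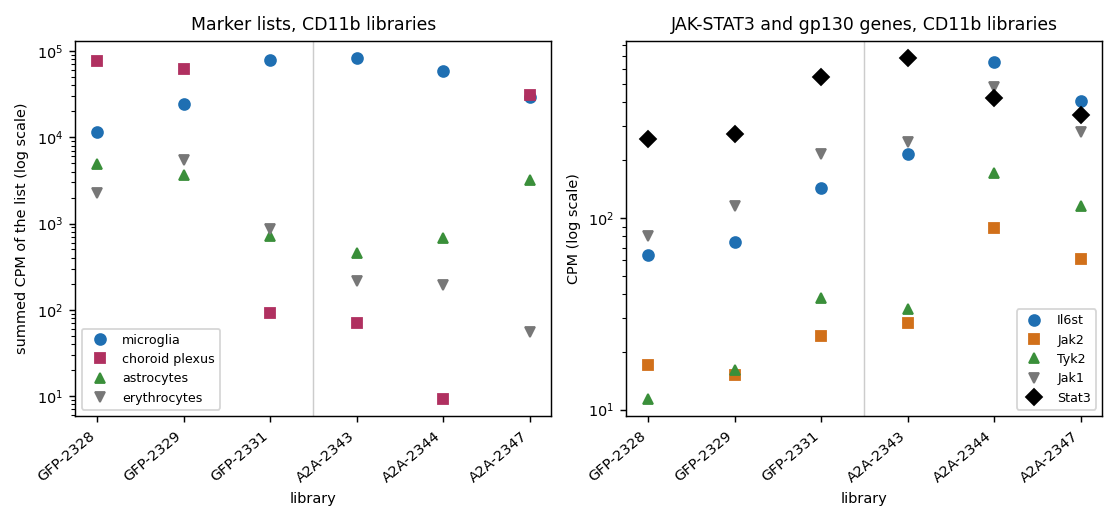
CD11b libraries one by one, with the summed level of 4 marker lists (left) and the level of 5 of the genes (right), in CPM on log axes; the grey line separates AAV-GFP from AAV-A2A libraries. Choroid plexus markers are at 31100 to 76200 CPM in GFP-2328, GFP-2329 and A2A-2347 and at or below 91.5 CPM in the others, and Il6st is higher in every AAV-A2A library than in every control.

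The difference between the 2 responses was tested in the fit of all 12 libraries. Il6st and Stat5b passed: the ACSA-2 response less the CD11b response was -3.62 on the log2 scale for Il6st (SE 0.60, adjusted p = 0.0438) and -2.60 for Stat5b (SE 0.45, adjusted p = 0.0438). Called lower were thus 2 of 10 members and higher 0, against 0.366% and 0.0376% of 18602 genes. Tyk2 (-3.14, SE 0.80, adjusted p = 0.0838), Jak2 (-1.97, SE 0.57, adjusted p = 0.109) and Stat3 (-1.93, SE 0.63, adjusted p = 0.135) did not pass. Lifr, Jak1, Socs3, Il6ra and Cntfr were between -1.54 and 0.32 and did not pass. Both calls were close to the threshold. Each passed in 4 of 17 alternative settings, and without the choroid-rich libraries the values were -3.06 for Il6st (adjusted p = 0.211) and -2.44 for Stat5b (adjusted p = 0.217). Leaving out any 1 library ended both calls, except GFP-2331 and A2A-2343, without which 7 and 4 members passed.

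**Figure D4:**
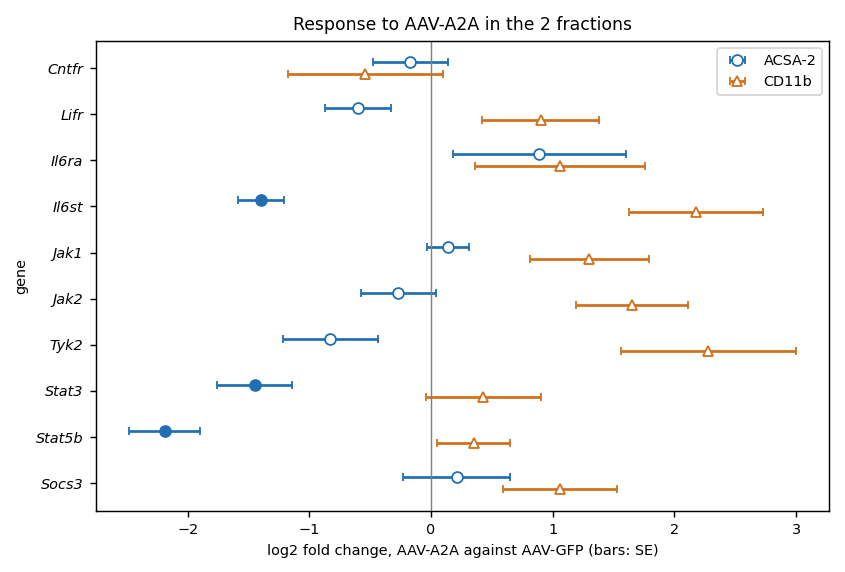
Log2 fold change of AAV-A2A against AAV-GFP in ACSA-2 (circles) and CD11b (triangles) libraries for each of the 10 genes; bars are the SE from edgeR with 3 libraries per group, and filled symbols are called. Il6st is at -1.40 in ACSA-2 and 2.18 in CD11b, Stat5b at -2.19 and 0.35, and the filled symbols are Il6st, Stat3 and Stat5b of the ACSA-2 fraction.

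The rest of the pathway was read from 5 lists of 61 genes in all: ligands of the gp130 family, other receptors, other JAK and STAT genes, other inhibitors, and genes known to respond to STAT3 in reactive astrocytes or the acute phase. In the ACSA-2 libraries 56 were tested, 2 were called higher and 2 lower, and the median log2 fold change was 0.04. Over all genes tested 0.176% were called higher and 3.19% lower, and 2 lower calls of 56 are near that share. None of the 8 ligand genes tested was called by edgeR, DESeq2 or limma-voom, and none had an unadjusted p under 0.05. Among the most abundant were Ctf1, encoding cardiotrophin, at 13.9 to 27.0 CPM in controls and 25.2 to 28.7 CPM with AAV-A2A (0.42, SE 0.28, adjusted p = 0.635), and Lif at 6.03 to 7.94 and 2.44 to 4.46 CPM (-0.95, SE 0.43, adjusted p = 0.396). Il6 was below the filter, with 1 read in A2A-310 and 0 in the other ACSA-2 libraries.

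Of the other receptors 3 were tested and none was called by edgeR, with 1 at an unadjusted p under 0.05. That gene was Osmr, the oncostatin M receptor and a partner of gp130, at 26.9, 45.1 and 29.6 CPM in controls and 19.4, 10.9 and 17.2 CPM with AAV-A2A. The groups did not overlap (-1.10, SE 0.31, adjusted p = 0.114), and DESeq2 called it. Il11ra1, of which 46.269% of 50-base stretches are shared with copies, was at 110 to 125 and 120 to 172 CPM (0.30, SE 0.18, adjusted p = 0.586), and Lepr, the leptin receptor, at 0.831 to 2.78 and 0.416 to 2.13 CPM. Of 5 other JAK and STAT genes tested 1 fell, Stat5a, given above. None of the 16 inhibitors was called by edgeR, DESeq2 or limma-voom, and 1 had an unadjusted p under 0.05. The most abundant were Pias1 (153 ± 12.6 and 120 ± 21.0 CPM), Ptprt (64.1 ± 8.77 and 43.2 ± 7.05 CPM) and Ptpn11 (48.7 ± 8.18 and 55.4 ± 9.69 CPM, SD, n = 3 each).

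Of the 24 STAT3-responsive genes 2 were called higher and 1 lower in the ACSA-2 libraries, against 0.176% and 3.19% of all genes tested. A single lower call of 24 is near that share. Serpina3n, an acute-phase protease inhibitor and marker of reactive astrocytes, rose from 45.2, 71.6 and 58.3 CPM to 238, 197 and 233 CPM (log2 fold change 1.93, SE 0.21, adjusted p = 0.00212), and passed whichever of the 6 libraries was left out. Timp1, an inhibitor of metalloproteinases, was at 0, 11 and 14 counts in controls and at 419, 212 and 309 counts with AAV-A2A (5.07, SE 1.03, adjusted p = 0.0263). Myc, a transcription factor of growth, fell from 30.0, 29.7 and 43.6 CPM to 13.8, 7.45 and 14.3 CPM (fell by 1.54, SE 0.32, adjusted p = 0.0307). With 1 library left out, Timp1 and Stat5a passed in 1 of 6 fits (without GFP-303) and Myc in 0. Gfap, named after its values were seen, was at 832 to 1252 CPM in controls and 1202 to 2402 CPM with AAV-A2A (0.70, SE 0.27, adjusted p = 0.285), with overlap. Over the 24 genes the median was 0.08, against 0.02 over all genes tested, with 17 values above 0 and 7 below. The unadjusted edgeR p was under 0.05 for 6 of the 24, against 2141 of 16451 genes. Besides the called genes and Gfap these were Pim3 (-0.57) and Bcl2l1 (-0.51), both lower and not called. The AAV-A2A libraries were all above the controls for 4 of the 24 and all below for 3, against 8.61% and 10.9% of all genes.

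**Figure D5:**
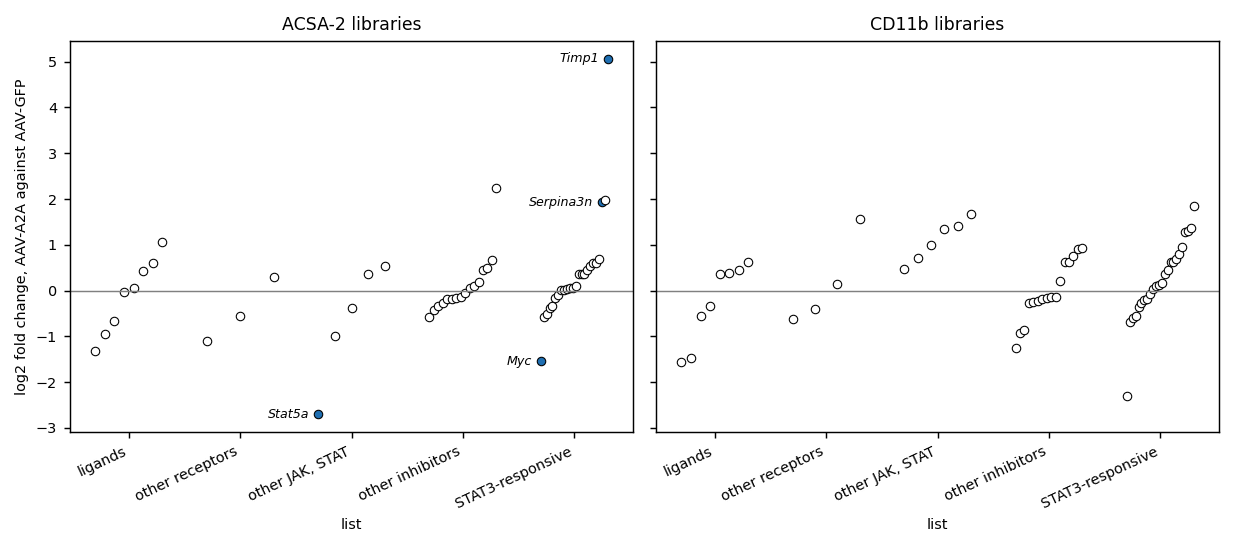
Log2 fold change of AAV-A2A against AAV-GFP for each tested gene of the 5 pathway lists, in rank order within a list, for ACSA-2 (left) and CD11b (right) libraries; filled and named points are called. In ACSA-2 Timp1 (5.07) and Serpina3n (1.93) are called higher and Stat5a (-2.70) and Myc (-1.54) lower, and no point is filled in CD11b.

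In the CD11b libraries 58 list genes were tested. By edgeR 0 were called, 7 had an unadjusted p under 0.05, limma-voom called 0, and DESeq2 called 1, the chaperone gene Hspb1, which was lower (fitted log2 fold change -2.30 in edgeR, adjusted p = 0.28) and shares 50.097% of its 50-base stretches with pseudogenes. All 6 other JAK and STAT genes had values above 0, with a median of 1.17. The most abundant were Stat6 (119 ± 67.2 and 319 ± 119 CPM, log2 fold change 1.42), Jak3 (44.3 ± 25.1 and 141 ± 49.0 CPM, 1.67) and Stat2 (21.9 ± 6.88 and 43.6 ± 20.9 CPM, 0.99), with adjusted p of 0.288, 0.28 and 0.351. The other lists had medians of 0.01 (ligands), -0.13 (receptors), -0.16 (inhibitors) and 0.14 (STAT3-responsive genes), against -0.05 over all genes tested. When the choroid-rich libraries were left out, the medians were 0.67 for the JAK and STAT genes, -0.25 (ligands), -0.21 (receptors), 0.04 (inhibitors) and 0.18 (STAT3-responsive genes), against 0.04. Stat6, Jak3 and Stat2 were then at 0.85, 1.05 and 0.50.

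Oncostatin M (Osm, 47.6 ± 24.8 and 65.0 ± 17.2 CPM) was the most abundant ligand gene of the CD11b fraction, ahead of Clcf1 (12.2 to 48.0 and 24.6 to 46.4 CPM) and Ebi3 (22.4 ± 19.1 and 34.8 ± 19.9 CPM). Lepr was at 38.8, 23.9 and 47.5 CPM in the 3 libraries rich in choroid plexus markers and at 0.170 to 0.888 CPM in the other 3. Among inhibitors Ptpn6 (471 ± 410 and 799 ± 292 CPM), Ptpn1 (322 ± 208 and 498 ± 179 CPM) and Pias1 (164 ± 42.1 and 189 ± 72.2 CPM) were the most abundant, and among STAT3-responsive genes Junb (2159 to 3748 and 2428 to 3885 CPM), Mcl1 (531 ± 138 and 815 ± 177 CPM) and Cebpb (327 ± 72.7 and 255 ± 155 CPM). None of these passed the test. In the 3 libraries poor in choroid plexus markers the log2 fold changes were 0.19 for Osm, 0.05 for Ptpn6, 0.09 for Ptpn1 and 0.20 for Junb.

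Over the 6 ACSA-2 libraries the genes whose log2 levels ran most like that of Stat3, of 10765 genes with a mean of at least 5 CPM, were Med25, Anp32e and Lif (Pearson r of 0.9985, 0.9964 and 0.9954). This is a description without a test, since the 6 libraries also differ by vector and the 3 genes were picked as the highest of many. Med25, a Mediator subunit, was at a mean of 213 and 113 CPM in controls and AAV-A2A libraries (log2 fold change -0.92, adjusted p = 0.0692). Anp32e, a histone chaperone, had a log2 fold change of -0.18 (adjusted p = 0.733). Of the other members Tyk2 (0.94), Stat5b (0.92) and Il6st (0.84) ran most like Stat3, and Jak1 (-0.40) least.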

How the data were processed

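The authors deposited raw read counts per Ensembl gene for 12 libraries, 1 table per fraction, with no normalisation. Full-length cDNA was amplified from low RNA input and tagmented, a preparation that does not mark strand. The submitters' processing notes name bcl2fastq, cutadapt 1.10, STAR 2.5.3 and HTSeq 0.6.1p1 and the mm10 build. Reads carry no molecular identifiers. Libraries were grouped by label and column name, and 25 unnamed empty columns were not used. The quasi-likelihood functions of edgeR 4.0.16 in R 4.3.3 were applied to the counts (TMM, filterByExpr, robust), within each fraction for the vector and over all 12 libraries for contrasts that cross fractions, with Benjamini-Hochberg adjustment over all tested genes. SE is the absolute log2 fold change divided by the square root of F. CPM use TMM-scaled totals. Alternatives were RLE scaling, DESeq2 1.42.0, limma-voom (limma 3.58.1), other filters, thresholds and libraries in the fit, an offset for length and GC, and the omission of single libraries. Scripts were tested on simulated data. Annotation came from GENCODE vM21 of GRCm38, which held 27813 and 30289 of the identifiers; the rest took at most 0.0956% of a library's counts. No pair of libraries of a group was alike within counting noise (chi-square per degree of freedom of at least 51.6). The p-values measure the spread between 3 libraries per group. The study gives 3 animals per group for the astrocyte data, and for the CD11b libraries the number of animals is not given in the sources used here. The members and lists were chosen with earlier results of these data known. Named were the members, Adora2a, list genes called by edgeR in a fraction and otherwise up to 3 of a list with the highest mean CPM. The 3 genes most like Stat3 were also named. Gfap, Pim3, Bcl2l1, Il6, Hspb1, Flt1, Cldn5 and Atp1b2 were named after their values were seen. A list gene that the rule names is not reported here. Plots used Python 3.11.15 and matplotlib 3.10.9.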

Additional observations from a re-analysis of the deposited data

Results flagged for a closer look

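The response to AAV-A2A differed between the fractions for 2 of the 10 genes by the test of the difference itself in the fit of all 12 libraries. For Il6st the response in ACSA-2 libraries less that in CD11b libraries was -3.62 on the log2 scale (SE 0.60, adjusted p = 0.0438 in edgeR). For Stat5b it was -2.60 (SE 0.45, adjusted p = 0.0438). All 3 AAV-A2A libraries were below all 3 controls in the ACSA-2 fraction for both genes, and in the CD11b fraction all 3 were above the controls for Il6st, while the groups of Stat5b overlapped. The adjusted p went from 1.15e-05 to 0.211 for Il6st and from 9.95e-05 to 0.217 for Stat5b over the 17 alternative settings. Each gene passed in only 4 of these settings. Of 18602 genes 0.366% were called lower and 0.0376% higher in the main fit.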

How the results depend on the processing

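In the ACSA-2 fraction 3 members were called, 2 with the length and GC offset, 2 without any 1 library and 1 (Stat5b) in the fit of all 12 libraries. The 4 called list genes became 2 with limma-voom, 2 with all 12 libraries, and 1 to 3 without 1 library, where Serpina3n was called each time. In the CD11b fraction 0 members and 0 list genes were called in all settings but DESeq2, which called 1 of each. Between the control fractions 4 members were called, with 3 to 5 over all settings. For the difference between responses the 2 calls became 0 with RLE scaling, with the length and GC offset (chosen after seeing the data for this contrast) and without the choroid-rich libraries (also chosen after seeing the data), 4 with DESeq2, and 0 to 7 without 1 library: 7 without GFP-2331, 4 without A2A-2343 and 0 without any of the other 10. The sign turned for some members that were not called. With the length and GC offset it turned for Stat5b in CD11b (-0.05), Il6st between fractions (0.05) and the response difference of Il6ra (0.55). Without the choroid-rich libraries it turned for Lifr between fractions (-0.61) and the response difference of Il6ra (0.47). With 1 library left out the ranges crossed 0 for Cntfr (-0.62 to 0.05) and Socs3 (-0.19 to 0.58) in ACSA-2, for Il6st (-0.42 to 0.29), Lifr (-0.02 to 0.97) and Jak2 (-0.44 to 0.06) between fractions, and for the response differences of Cntfr (-0.11 to 0.57) and Il6ra (-1.24 to 0.59). The causes were not tested. Over all genes, higher and lower calls in ACSA-2 were 29 and 524 in edgeR, 277 and 1000 in DESeq2, 8 and 148 with all 12 libraries, and 6 and 266 without GFP-306, the fewest with 1 library left out. In CD11b they were 0 and 0 in edgeR, 264 and 238 in DESeq2, and 1 and 2 without the choroid-rich libraries. For the response difference they were 7 and 68, against 728 and 1012 in DESeq2, 1 and 9 with RLE scaling, 55 and 290 with at least 10 counts in every library, 0 and 0 with the offset or without the choroid-rich libraries, and 0 and 0 to 359 and 927 with 1 library left out, the most without GFP-2331. No paired analysis was possible because the groups share no replicate numbers. Each group had 3 libraries, and the biological coefficient of variation was 0.52 in ACSA-2 and 0.707 in CD11b.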
